A study of Cyprinus carpio with 6 samples.

Results

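The untreated brain of the common carp (Cyprinus carpio) was described from 3 of the 6 sequenced brain samples, those whose labels give no agent. The other 3 samples of the series carry the label lead, and none of their values was used. All 6 samples are labelled brain. No strain, age, sex, rearing condition, brain region or sampling time is stated, nor is the number of fish behind the libraries. The spread over the 3 libraries, called control replicates 1, 2 and 3, may therefore be technical in part. Because the word adipose appears in the RNA protocol, the brain label was checked against a list of neuronal markers. Of 60 gene copies on that list 50 were detected, against 54.0% of all genes in the table. No list of adipose markers was used, so a part of adipose tissue was not tested.

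Fish brains keep much of their glia as radial glia, cells that line the ventricles and go on making neurons in adult life. Neurons signal with glutamate and GABA over most of the brain, while monoamines are made mostly by small groups of cells, as in the hindbrain, midbrain and hypothalamus. The carp lineage went through an additional doubling of its genome, so many carp genes have a partner copy that most other fish lack.

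Levels are the authors' FPKM values (fragments scaled to transcript length and to the library's mapped fragments), which can be compared between genes because they are scaled to length. A gene was taken as detected when it had at least 1 FPKM in all 3 libraries. By that rule 28705 of 53152 genes, or 54.0%, were detected, 9134 reached 10 FPKM, 701 reached 100 FPKM and 11 reached 1000 FPKM in each library. Libraries held 34848243, 32289182 and 31159339 counts over genes in replicates 1, 2 and 3, and 3758 genes had 0 counts in all 3. Across the detected genes, Pearson's r of log2 FPKM between libraries was 0.935 to 0.942, a description in which genes share libraries and length scaling. The biological coefficient of variation, edgeR's estimate of the spread between libraries beyond counting error, was 0.263. All values in the text have n = 3 libraries of 1 group, an exact sign test over which cannot reach a low p, so no test was made and each order is given by library. In bulk tissue, fewer cells of a type and less RNA per cell cannot be told apart.

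Ependymin was the most abundant transcript of the untreated brain in all 3 libraries. Ependymin (LOC109085354) is a calcium-binding glycoprotein that fish secrete into the brain's extracellular and cerebrospinal fluid, made mainly by cells of the meninges and studied in goldfish for its part in memory. Its levels were 20068, 7847 and 8077 FPKM in replicates 1, 2 and 3. Replicate 1 stood apart from the other libraries, which lay close together. The mean was 11997 ± 6990 FPKM (SD), 4.61 times that of the next gene, and the gene alone took 1.93%, 0.755% and 0.772% of all counts. It lies on sequence NC_031705.1 from 13312532 to 13314378 on the minus strand, as the table gives it. Of 3 further genes described as ependymin-like, LOC109097872 had 38.0, 26.7 and 65.5 FPKM and LOC109050152 and LOC109092097 had 0 counts in all 3 libraries, so 1 of the 4 copies carried nearly all of the level.

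A gene with no functional description, LOC109085244, lay 64.3 kb from ependymin on the same strand, with 6 genes between them, and had rank 3 by mean level. Its levels of 4920, 1210 and 1634 FPKM were also highest in replicate 1. Ependymin exceeded it 4.08, 6.48 and 4.94 times in replicates 1, 2 and 3.

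Myelin basic protein, the protein that compacts the membranes of the myelin sheath, ranked second by mean level. In replicates 1, 2 and 3 it held ranks 3, 6 and 3. Its mean of 2603 FPKM was close to the 2588 FPKM of LOC109085244. The gene LOC109066305, on sequence NW_017538301.1 from 1228013 to 1236103 on the plus strand, had 3564, 1548 and 2696 FPKM. Replicate 2 was the low library. The gene LOC109086534, which has a description that refers back to LOC109066305, was also among the 25 most abundant, at 1475, 901 and 949 FPKM. Its highest library was replicate 1.

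Ranks 4 and 5 by mean level were taken by genes that could not be named. LOC109063687 had 531, 911 and 5627 FPKM, so its mean of 2356 FPKM rested on replicate 3. Its description names a hypothetical protein and says nothing of function. LOC109108885, with no description, had 2004, 2567 and 1773 FPKM, and LOC109108886, on the same sequence, had 1218, 1008 and 612 FPKM. In all, 8 of the 25 most abundant genes had no informative description, while 80.0% of all genes in the table had one.

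The remaining places included genes that act on actin, in translation and in energy supply. Thymosin beta-4 (tmsb4x), which holds actin monomers in reserve, had 2072, 1780 and 1578 FPKM, and thymosin beta-11 (LOC109093923) had 1141, 765 and 890 FPKM. The cytoplasmic actin LOC109056719 had 1318, 1064 and 1057 FPKM, and LOC109092410, described as a muscle-like actin, had 1393, 1149 and 1038 FPKM. These 4 genes were highest in replicate 1.

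Elongation factor 1-alpha, which brings aminoacyl-tRNA to the ribosome, had 1568, 1171 and 1504 FPKM in its leading copy LOC109111735 and 1192, 786 and 975 FPKM in LOC109067524. Glyceraldehyde-3-phosphate dehydrogenase 2 (LOC109087792), a glycolytic enzyme, had 888, 1671 and 1399 FPKM and was lowest in replicate 1. Creatine kinase B (LOC109113381), which buffers ATP in brain, had 1125, 943 and 1214 FPKM. Ferritin heavy subunit (LOC109084530), which stores iron, varied least among the 25, with 924, 926 and 885 FPKM.

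A myoglobin-like gene (LOC109067092), which overlaps a gene on the opposite strand, was among the 25, at 1511, 1059 and 1195 FPKM. Myoglobin binds oxygen, and a form made in the brain is known from carp. Listed markers of skeletal muscle, its usual tissue, were low, and their values stand with the cell types. That list does not hold the muscle-like actin LOC109092410, and the part of muscle in the myoglobin level was not tested. Protein jumonji-like (LOC109061589), a gene over a span of 165 kb that overlaps another gene on the opposite strand, had 801, 1380 and 1100 FPKM and was lowest in replicate 1.

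Named genes of glia and immune cells completed the list. Brain-type fatty acid-binding protein (LOC109064295), a lipid carrier of radial glia, had 1248, 1221 and 1106 FPKM. S100B (LOC109096674), a calcium-binding protein of astroglia, had 1013, 934 and 756 FPKM. The invariant chain of class II histocompatibility molecules (cd74, LOC109085887), which escorts these molecules in antigen-presenting cells, had 2024, 832 and 1095 FPKM. Replicate 1 was again the highest for cd74, whose gene overlaps one on the opposite strand.

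The composition of the top ranks differed between libraries. Of 33 genes that stood among the 25 most abundant in at least 1 library, 15 did so in every library. The 10 most abundant genes of each library held 6.66%, 3.93% and 4.60% of all FPKM in replicates 1, 2 and 3, and the 100 most abundant held 18.2%, 14.2% and 15.2%. Genes of ribosomal proteins made up 39 of the 100 genes of highest mean level. Together the 130 genes described as ribosomal proteins held 8.72%, 6.77% and 7.72% of all FPKM, and 125 of them were detected.

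**Figure D1:**
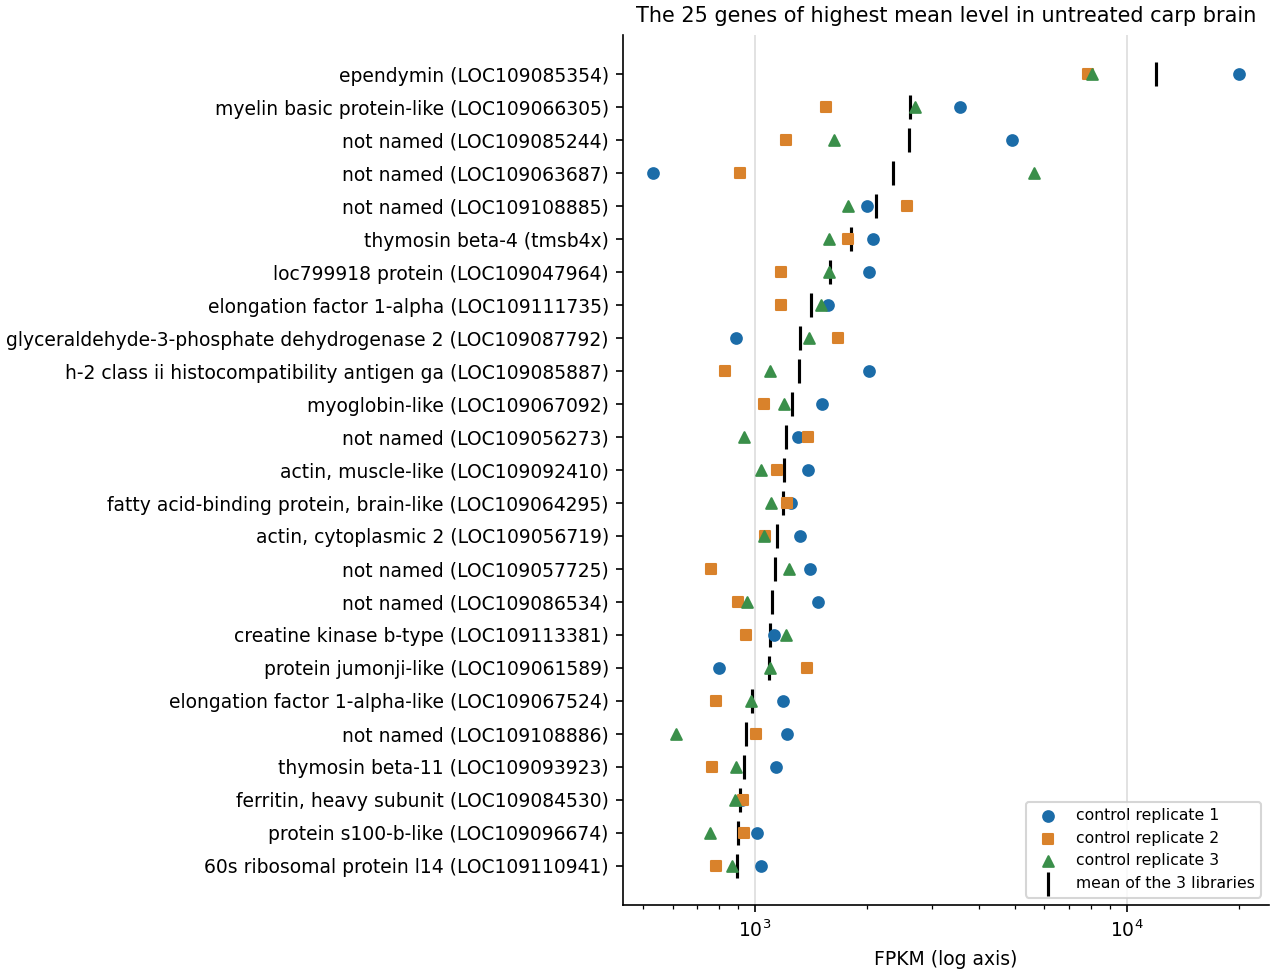
FPKM on a log axis for the 25 genes of highest mean level, with 1 symbol per control library and a bar at the mean of the 3 libraries. Ependymin lies to the right of every other gene in each library, replicate 1 is high for ependymin, LOC109085244 and cd74, and replicate 3 alone is high for LOC109063687.

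Gene copies were compared as families, a family being all genes with the same description text. Families of 2 or more numbered 7563 and held 22149 genes, and 4548 of them had exactly 2 copies. Of the 6540 families with a summed mean level of at least 1 FPKM, 5045, or 77.1%, were led by the same copy in all 3 libraries. Among pairs the share was 80.8%, with 3054 of 3778. Families of 3 kept 1 leader in 76.2% of cases, families of 4 in 71.4%, and families of 10 to 77 copies in 41.1%. The share to be met without any dominance also falls as copies are added, so these percentages do not compare dominance between sizes.

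Over all pairs at 1 FPKM or more, a lead above 2-fold was more common than a smaller one. The leader was picked from the same values, so its share cannot fall below 50%. The leading copy of a pair held a median of 70.4% of the pair's level, with an interquartile range of 59.0% to 86.4%. It exceeded the other copy more than 2-fold in 2196 pairs (58.1%) and more than 10-fold in 726 pairs (19.2%), and in 174 pairs the lower copy had 0 counts in all 3 libraries. The 389 pairs with a summed level of at least 50 FPKM were less unequal, with a median share of 64.6%. That median is a lead of under 2-fold. Of these pairs, 336 (86.4%) kept 1 leader. In 41 of these 389 pairs the leader exceeded the other copy more than 10-fold. The ratio of the copies moved between libraries by a median of 0.73 on the log2 scale over the 3003 pairs counted in every library, and by 0.42 in the high pairs.

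The leading share differed with where the copies lie. Pairs on the same sequence had a median leading share of 64.9%, and 60 of 698 (8.60%) were more than 10-fold apart. Pairs on different linkage groups had a median of 70.9%, with 125 of 703 (17.8%) that far apart. Where the copies lay on different sequences, at least 1 of them an unplaced scaffold, the median was 72.5%, with 541 of 2377 (22.8%). Pairs within 1 scaffold were counted with those on the same sequence. Summed levels differed too, with medians of 13.7, 9.46 and 8.97 FPKM in these groups of pairs, and their part in the difference was not tested. The sources used here do not say how reads that match several copies were shared out, so levels of near-identical copies carry that uncertainty.

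**Figure D2:**
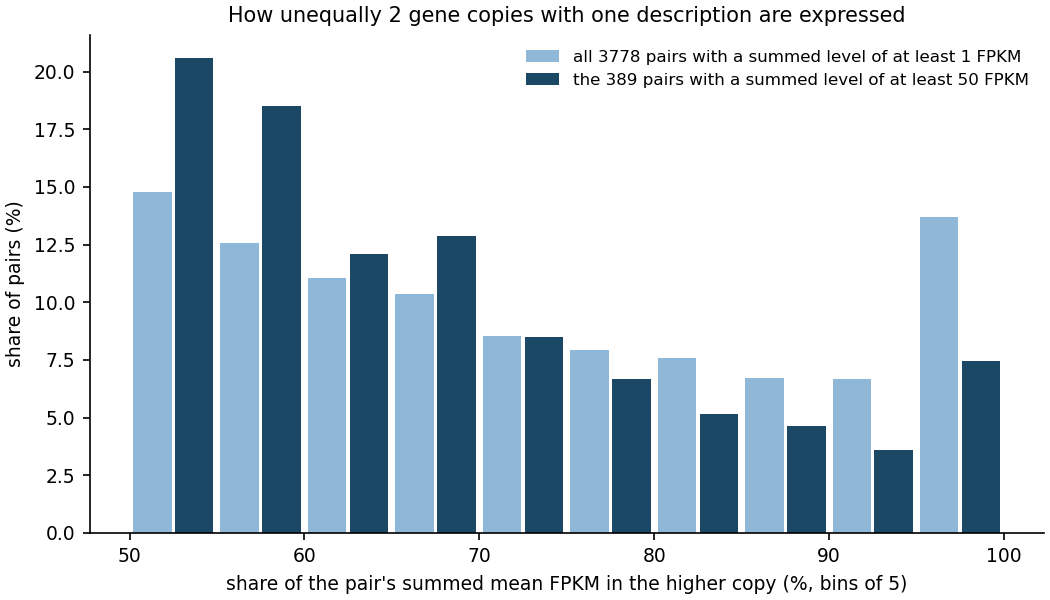
Share of pairs (y axis, percent) against the share of the pair's summed mean FPKM held by the higher copy (x axis, percent, bins of 5), for all 3778 pairs and for the 389 pairs at 50 FPKM or more. All pairs pile up at both ends, with 14.8% of pairs at 50 to 55 and 13.7% at 95 to 100, while the high pairs lean to the balanced end, with 20.6% and 7.46%.

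The pairs of highest summed level were mostly balanced. Ribosomal protein S7, of the small ribosomal subunit, had 979, 721 and 861 FPKM in rps7 and 881, 636 and 745 FPKM in LOC109107614, which overlaps genes on the opposite strand, a ratio of means of 1.13. The copies of S6 (LOC109097743 and LOC109045200) differed 1.12-fold and those of L35 (LOC109071874 and LOC109057990) 1.18-fold. Calmodulin, the calcium sensor of many kinases, had 658, 804 and 617 FPKM in LOC109100202 and 637, 796 and 593 FPKM in LOC109100201, a ratio of 1.03. The same copy led in all 3 libraries in each of these pairs.

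S100B was likewise shared, with a second copy (LOC109096677) at 685, 788 and 582 FPKM, 58.5 kb from the first. Isotocin, the fish counterpart of oxytocin, was balanced between its IT 1 copies although its level was not stable between libraries. LOC109046810 had 327, 1680 and 621 FPKM and LOC109050790 had 278, 1268 and 536 FPKM, on different linkage groups, and the ratio stayed between 1.16 and 1.33.

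In contrast, the myoglobin-like pair was dominated by 1 copy. LOC109067070 had 11.7, 8.12 and 14.6 FPKM against the level above 1000 FPKM of LOC109067092, a ratio of means of 109. The copies of glyceraldehyde-3-phosphate dehydrogenase 2 differed 5.75-fold by their means, and the ratio itself moved from 3.59 in replicate 1 to 9.43 in replicate 2 and 5.29 in replicate 3. The lower copy, LOC109087745, overlaps the higher one on the same strand, so their reads may not be separable.

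The 5 most unequal pairs at 50 FPKM or more each had a copy with few or no counts. Ndufb6, a subunit of respiratory complex I, had 70.6, 63.2 and 69.2 FPKM in its named copy and 0 counts in LOC109056600, so it was at least 1360-fold higher in counts against a floor of 3 counts over the 3 libraries. The chromatin protein HMG-T had 261, 171 and 243 FPKM in LOC109085729 and 0 counts in LOC109080411, at least 4347-fold apart on the same scale. LOC109068847, described as up-regulated during skeletal muscle growth protein 5 and known as a subunit associated with ATP synthase, was at least 1238-fold above LOC109092162. Caytaxin, a protein of neurons tied to ataxia in humans, had 112, 90.0 and 74.5 FPKM in LOC109073448 and a single count, in replicate 3, in LOC109087634. Chromatin target of PRMT1 had 125, 118 and 121 FPKM in LOC109104070 and 8 counts, all in replicate 1, in LOC109053850.

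Of the most balanced pairs at that level, 4 are given, which had nearly equal means. None of these pairs kept 1 leader, which follows largely from their choice for equal means. They were prefoldin subunit 6, a chaperone component (LOC109102954 and LOC109102176), ndufb5 of complex I (LOC109057504 and LOC109057503), the splicing factor bud31 (LOC109047768 and LOC109047689), and the axonal motor kif1a (LOC109088375 and LOC109064846). Of these genes, LOC109102176, LOC109057504 and LOC109088375 overlap another gene. The kif1a copies had 50.0, 61.7 and 58.0 FPKM and 54.0, 62.7 and 52.6 FPKM.

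Among larger families, those of highest summed level were described by copy. Brain-type fatty acid-binding protein had 1248, 1221 and 1106 FPKM in its first copy, 499, 490 and 431 in LOC109069616, 393, 394 and 373 in LOC109107925, and 15.9, 19.9 and 20.4 in LOC109052613. The ratio of the first to the second lay between 2.49 and 2.56 in all 3 libraries. Stathmin, which takes tubulin out of the pool for microtubules, had 874, 844 and 857 FPKM in LOC109086881 and 814, 633 and 816 FPKM in LOC109086882, with 2 lower copies. The invariant chain family had copies at means of 1317, 628 and 264 FPKM. Ribosomal protein L32 and a family described as csa-calmodulin 3 each had 3 copies, with leaders at 746 and 637 FPKM on average. The lower copies of L32 changed places, with 415, 406 and 367 FPKM in LOC109052148 and 439, 337 and 313 FPKM in LOC109103741.

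Several other genes that are often used as references were spread over copies. Elongation factor 1-alpha had 7 copies, all detected, with a further copy, LOC109111739, at 320, 293 and 270 FPKM that overlaps the leading one. The cytoplasmic actins had 3 copies, the second being LOC109051881 at 840, 484 and 649 FPKM and the lowest LOC109073280 at 485, 327 and 391 FPKM. Calmodulin genes outside the csa-calmodulin family had 4 copies, the lowest being LOC109103813 at 59.1, 47.5 and 71.8 FPKM.

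Transmitter genes were described by role. Over 11 lists with 740 gene copies in all, 373 copies, or 50.4%, were detected, close to the 54.0% of all genes. Glutamate had the highest summed level of the classical transmitters, with 2488, 2590 and 2819 FPKM in replicates 1, 2 and 3. GABA followed with 1171, 1133 and 1238 FPKM. Glycine had 200, 201 and 226 FPKM and acetylcholine 143, 115 and 129 FPKM. Of the glycine sum, 97.7, 93.0 and 116 FPKM came from gephyrin, a scaffold that also binds GABA-A receptors. Without gephyrin, glycine would stand below acetylcholine in every library.

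The lists of the amines and purines were lower still in sum, and histamine had the lowest sum of all 11. Noradrenaline had 61.4, 76.4 and 79.5 FPKM, purines 72.8, 60.3 and 63.5, dopamine 61.7, 54.5 and 57.2, serotonin 63.1, 46.9 and 44.6, and histamine 18.9, 11.6 and 19.6. Neighbours in that order changed places between libraries, noradrenaline with purines, dopamine and serotonin, and dopamine with serotonin. Neuropeptides and the release machinery also changed places. The remaining 50 of the 55 pairs of lists kept 1 order in all 3 libraries. Of the dopamine sum, 32.2, 16.8 and 19.3 FPKM came from the breakdown enzymes mao and comt. Without them, dopamine would stand below serotonin in every library. The lists differ in size, with 177 copies for glutamate, 101 for GABA, 66 for purines, 57 for serotonin and 13 for histamine. By mean per copy, histamine at 1.28 FPKM was above purines at 0.993 and serotonin at 0.904. Glutamate at 14.9 FPKM per copy stayed above GABA at 11.7. With means per copy, 50 of the 55 pairs of lists kept the order of the sums.

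Among the glutamate roles, vesicular transporters, NMDA receptors and a group of kainate-binding proteins had the highest sums. Vesicular glutamate transporter 1 (slc17a7), which fills synaptic vesicles, had 241, 370 and 367 FPKM in LOC109048116 and 56.5, 91.7 and 103 FPKM in LOC109055164. Both copies were lowest in replicate 1. The 4 copies of vesicular transporter 2 (slc17a6) were nearer to each other, with LOC109064373 at 45.9, 54.7 and 67.8 FPKM, LOC109074923 at 62.9, 27.8 and 43.5, LOC109093052 at 27.5, 33.3 and 39.2, and LOC109080888 at 24.4, 15.0 and 18.5. Vesicular transporter 3 (slc17a8) was below 1 FPKM in both copies, LOC109109343 and LOC109051795, in every library.

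Of the enzymes that make glutamate, the leading copy of aspartate aminotransferase (LOC109060878), also an enzyme of general metabolism, had 74.8, 66.1 and 70.5 FPKM. The leading glutaminase (LOC109044954) had 25.1, 34.3 and 33.3 FPKM. Among 23 AMPA receptor copies, which carry fast excitation, 19 were detected, led by a glutamate receptor 4-like copy (LOC109046098) at 64.2, 58.3 and 49.7 FPKM.

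The obligatory NMDA receptor subunit 1 took the 4 highest places among 40 NMDA receptor copies. LOC109061150 had 172, 275 and 199 FPKM, LOC109089958 60.3, 107 and 109, LOC109045155 59.8, 57.8 and 69.2, and LOC109054676 47.6, 39.8 and 48.0. The highest copy of a modulatory subunit, 2C (LOC109105387), had 10.3, 23.3 and 18.0 FPKM. The list of NMDA receptors had 17 detected copies and was lowest in replicate 1, at 440, 586 and 547 FPKM in sum.

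Kainate-binding proteins are short relatives of glutamate receptors known from fish, frogs and birds. Only 4 genes, listed as probable glutamate receptor, were taken as such here, and all 4 were detected. Their sum was 432, 366 and 462 FPKM, led by LOC109094488 at 216, 130 and 172 FPKM and LOC109074771 at 141, 139 and 187 FPKM. True kainate and delta receptors numbered 40 copies and summed to 152, 142 and 178 FPKM, with a delta-1-like copy (LOC109095015) at 15.4, 16.1 and 28.0 FPKM in front. Metabotropic receptors, which act through G proteins, had 28 of 36 copies detected. The leading copy, a receptor 2-like gene (LOC109063859), hardly moved, with 48.3, 48.1 and 47.2 FPKM.

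Of the glutamate uptake carriers, slc1a3 and slc1a2 had their levels concentrated in single copies. Of a further carrier, slc1a1, both copies were detected, and the leading copy held 70.3% of the level. Excitatory amino acid transporter 1 (slc1a3), the uptake carrier of radial glia, had 52.3, 26.8 and 50.6 FPKM in LOC109085655, while LOC109089192, LOC109091797, LOC109080183 and LOC109107626 averaged below 1 FPKM. Transporter 2 (slc1a2) had 32.6, 21.9 and 41.0 FPKM in LOC109090559 and 0 counts in LOC109093838. Both leading carriers were lowest in replicate 2.

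GABA genes showed more glutamate decarboxylase 1 than 2. All 5 copies of gad1, the enzyme of the basal GABA pool, were detected, with 110, 98.2 and 101 FPKM in LOC109105502, 49.2, 42.9 and 36.3 in LOC109063962, 30.8, 16.1 and 34.6 in LOC109066144, 10.4, 8.39 and 7.04 in gad1, and 8.16, 5.83 and 7.79 in LOC109085111. Of gad2, the enzyme of nerve terminals, the copy gad2 had 20.8, 10.0 and 24.1 FPKM, LOC109048922 15.1, 11.6 and 9.67, and LOC109070229 0 counts. Summed over copies, gad1 had a mean of 189 FPKM and was above gad2 in every library.

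The vesicular carrier of GABA and glycine (slc32a1, LOC109063084) had 25.8, 18.1 and 29.9 FPKM and was the sole copy found. The vesicular carrier and the leading copies of both decarboxylases were lowest in replicate 2.

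GABA-A receptors, the chloride channels of fast inhibition, had 35 of 59 copies detected and a sum of 632, 738 and 712 FPKM. A beta-2 subunit (LOC109083654) led at 121, 196 and 145 FPKM. The next copies were the extrasynaptic delta subunit (gabrd) at 56.4, 46.2 and 58.9 FPKM and the alpha-6 subunit (LOC109046568), a marker of cerebellar granule cells in mammals, at 39.8, 59.7 and 52.1 FPKM. GABA-B receptors were led by a subunit 1 copy (LOC109095706) at 8.88, 10.9 and 14.2 FPKM.

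Glycine receptors were led by beta subunits, the part that anchors the channel at synapses. LOC109046096 had 32.0, 45.1 and 40.0 FPKM and LOC109101391 23.9, 20.5 and 22.3 FPKM. Gephyrin, the scaffold to which these and GABA-A receptors bind, had 8 of 10 copies detected, with LOC109048025 in front at 30.3, 30.4 and 25.8 FPKM. The neuronal glycine transporter 2 (slc6a5) was below 1 FPKM in slc6a5, LOC109092972 and LOC109057382, the last with 0 counts. Transporter 1 (slc6a9) had 2.03, 1.06 and 1.80 FPKM in LOC109086975 and 0.884, 0.483 and 1.06 FPKM in slc6a9. Serine hydroxymethyltransferase, which makes glycine, had 10.8, 14.8 and 12.7 FPKM in LOC109051580.

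For acetylcholine, the degrading enzyme was far above the enzyme that makes it. Acetylcholinesterase had 24.2, 22.2 and 24.9 FPKM in LOC109050360 and 17.5, 16.2 and 20.2 in LOC109049471, while LOC109109741, LOC109112422 and LOC109109404 averaged below 2 FPKM. Choline acetyltransferase (chat) had 8 copies, of which 1 was detected, LOC109064142 at 2.80, 1.24 and 2.33 FPKM, and 1, LOC109049412, had 0 counts. Levels of the remaining 6 copies, LOC109073723, LOC109108215, LOC109073168, LOC109094778, LOC109086229 and LOC109089618, were below 1 FPKM in each library.

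None of the 5 copies of the vesicular acetylcholine transporter (slc18a3) met the detection rule. LOC109064165 led at 2.07, 0.851 and 2.34 FPKM, followed by LOC109073722 at 1.67, 1.17 and 0.829, with LOC109108209, LOC109082795 and LOC109073174 below 1 FPKM. The choline transporter of nerve terminals (slc5a7, LOC109074059) had 0.0422, 0.183 and 0.217 FPKM. Nicotinic receptors were led by an alpha-5 copy (LOC109061087) at 8.52, 8.28 and 7.65 FPKM and muscarinic receptors by an M4 copy (LOC109067154) at 15.4, 13.3 and 9.01 FPKM.

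The enzymes that make the monoamines and their carriers lay low, with none above 4.29 FPKM in any library. Tyrosine hydroxylase (th), which commits tyrosine to catecholamines, had 1.63, 0.738 and 0.797 FPKM in LOC109077513, 0.432, 1.60 and 0.195 in LOC109068347, and 0, 0.526 and 0.566 in LOC109068217. The copy that led was not the same in every library. Aromatic amino acid decarboxylase had 1.32, 0.887 and 1.03 FPKM in ddc and 0.860, 0.446 and 0.300 in LOC109066248.

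The vesicular monoamine transporter (slc18a2, LOC109100567) had 3.05, 4.02 and 4.29 FPKM. The dopamine transporter (slc6a3) had 2.02, 3.39 and 2.39 FPKM in LOC109084940 and 0.228, 0.256 and 0.398 in LOC109084939. Among 22 dopamine receptor copies 4 were detected, led by a D4 copy (LOC109073213) at 7.95, 17.1 and 16.3 FPKM.

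Dopamine beta-hydroxylase, which turns dopamine into noradrenaline, was below 1 FPKM in both LOC109052532 and LOC109080215, and the noradrenaline transporter (slc6a2, LOC109058357) had 0.232, 0.0261 and 0.215 FPKM. Noradrenaline receptors were nevertheless present, led by a beta-1 copy (LOC109099658) at 19.1, 35.5 and 35.6 FPKM. Phenylethanolamine N-methyltransferase (pnmt, LOC109092887), which makes adrenaline, had 3.65, 0 and 0.173 FPKM, so 1 library set its mean.

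Of the enzymes that start serotonin synthesis, tryptophan hydroxylase 2, the neuronal form, had LOC109074194 at 2.40, 3.57 and 1.93 FPKM, LOC109110720 at 0.528, 0.357 and 0.434, and LOC109074186 at 0.289, 0.277 and 0. The tph1 gene (LOC109077220) had 0.331, 0 and 0 FPKM. The serotonin transporter (slc6a4) was not stable, with 3.48, 0.127 and 0.133 FPKM in LOC109089953, and below 1 FPKM in LOC109098794 and LOC109088448. Among 50 serotonin receptor copies 11 were detected, led by a 1F copy (LOC109092341) at 4.69, 7.22 and 4.12 FPKM.

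Histidine decarboxylase (hdc, LOC109070931), which makes histamine, had 0, 0.119 and 0.0587 FPKM. The leading histamine receptor, an H3 copy (LOC109066375), had 4.81, 4.07 and 4.37 FPKM. The ATP receptors were led by a P2Y11 copy (LOC109081274) at 7.43, 4.63 and 3.12 FPKM and the adenosine receptors by an A1 copy (LOC109101732) at a mean of 9.55 ± 2.65 FPKM (SD), lowest in replicate 1 and highest in replicate 3.

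**Figure D3:**
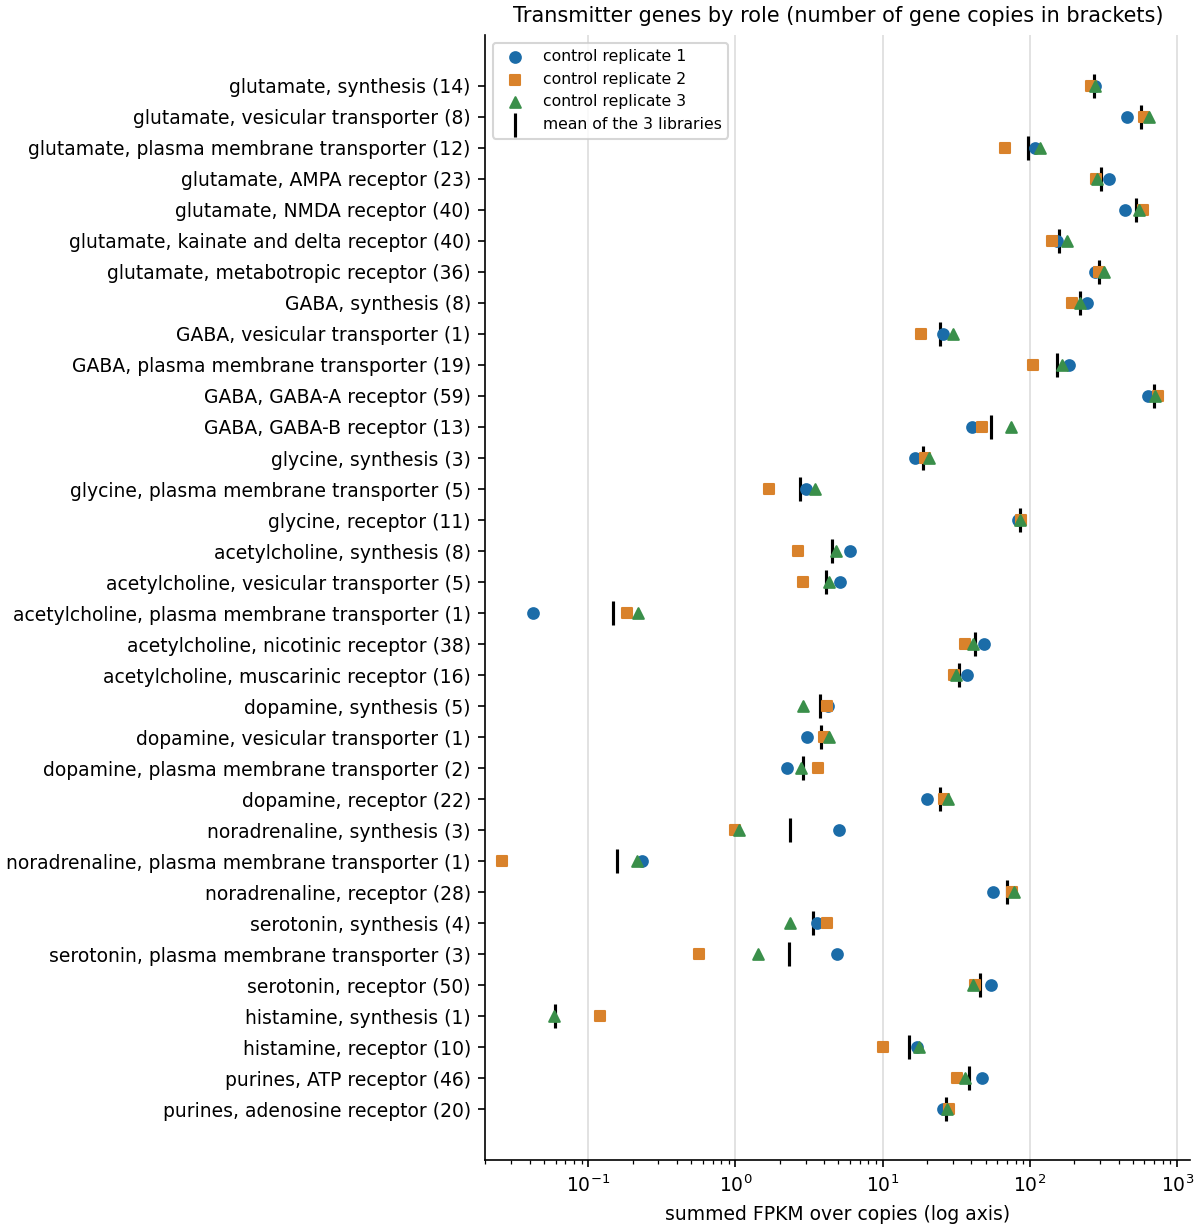
FPKM summed over gene copies on a log axis for the synthesis, transport and receptor roles of the classical transmitters (breakdown, gephyrin and kainate-binding proteins not drawn), with 1 symbol per control library, a bar at the mean, and the number of copies in brackets. Glutamate and GABA roles lie mostly above 20 FPKM, while synthesis and transport of acetylcholine and the monoamines lie at or below 6.03 FPKM in every library. Histamine synthesis was 0 in replicate 1 and has no symbol there.

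The list of neuropeptide precursors and granins summed to 3037, 6077 and 3401 FPKM, highest in replicate 2. The isotocin precursors alone had 646, 3590 and 1158 FPKM over 3 copies. Vasotocin, the fish counterpart of vasopressin, was also highest in replicate 2, with 50.8, 145 and 73.6 FPKM in LOC109107405, 47.7, 84.5 and 42.9 in LOC109062870, and 18.7, 70.6 and 39.5 in LOC109067542. Both hormones are made by hypothalamic neurons that project to the pituitary.

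Somatostatin, an inhibitory peptide, had all 8 copies detected and 188, 246 and 203 FPKM in sum, highest in replicate 2 as well. Neuropeptide Y (npy), which stimulates feeding, was instead lowest in replicate 2, at 65.1, 39.1 and 72.3 FPKM. Granins, proteins of dense-core vesicles that hold peptides, summed to 1391, 1392 and 1299 FPKM, led by a 7B2 copy (LOC109113568) at 328, 343 and 317 FPKM.

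Genes of vesicle release were high in every library, with sums of 3542, 4328 and 4125 FPKM. Snap25, the plasma-membrane SNARE that drives vesicle fusion, had 647, 915 and 819 FPKM in snap25, 273, 299 and 251 in LOC109087068 and 103, 187 and 164 in LOC109107454. The calcium sensor synaptotagmin-1 (LOC109051473) had 153, 283 and 221 FPKM, and the vesicle protein synaptophysin (syp) 231, 214 and 261. Of these, snap25, LOC109107454 and LOC109051473 were lowest in replicate 1, LOC109087068 in replicate 3 and syp in replicate 2.

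Marker genes of cell types formed a broad scale of levels. Over 15 lists with 558 copies, 276, or 49.5%, were detected, against 54.0% of all genes. Astroglia and radial glia summed to 5819, 5587 and 5301 FPKM and neurons to 4344, 4891 and 4953 FPKM. Microglia and macrophages had 5621, 2401 and 3137 FPKM and oligodendrocytes and myelin 4684, 2262 and 3838 FPKM. A sum over markers is no measure of the number of cells, since a few genes can set it.

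The order of lists was largely shared by the libraries, with 99 of 105 pairs of lists in 1 order in all 3. Microglia and macrophages, neurons, and oligodendrocytes changed places with each other. Pericytes changed with progenitors, and the list of retina, pineal and lens with the meninges and with leukocytes.

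**Figure D4:**
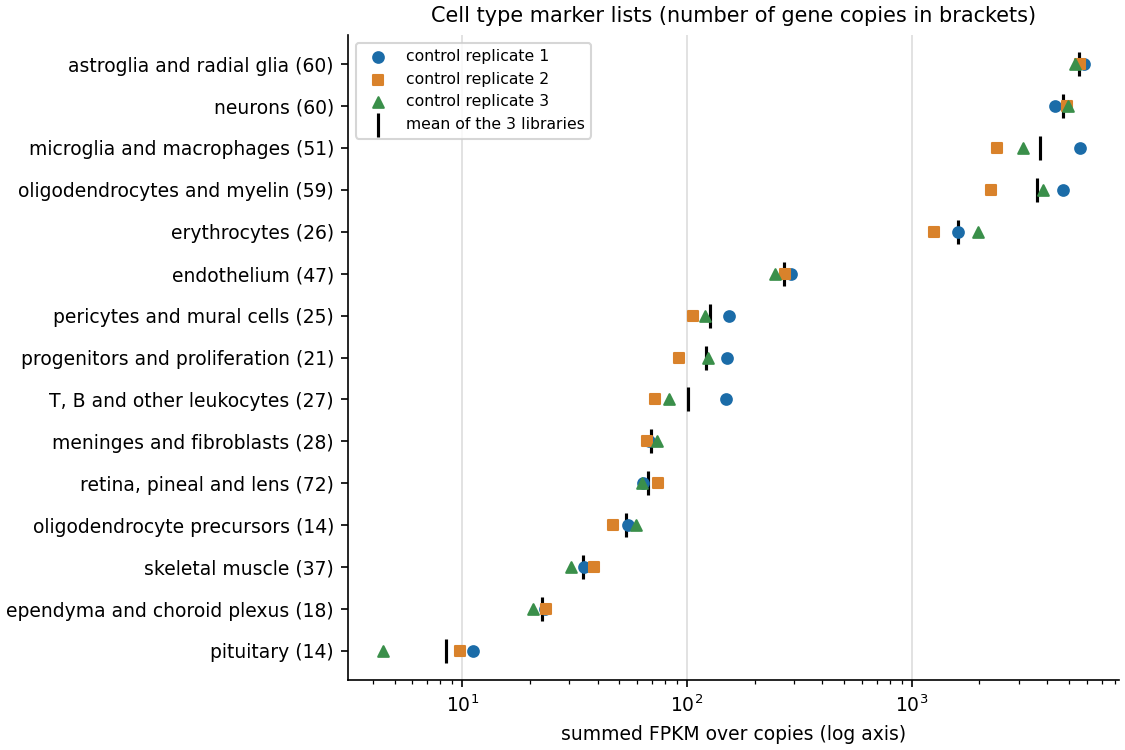
FPKM summed over the gene copies of each cell type list on a log axis, with 1 symbol per control library, a bar at the mean and the number of copies in brackets. Astroglia and neurons have close symbols, while microglia, oligodendrocytes and leukocytes spread, with replicate 1 highest and replicate 2 lowest in each of these 3 lists.

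The list of astroglial markers varied little in sum, while its members differed in level and spread. After brain-type fatty acid-binding protein and S100B came aldolase C, a glycolytic enzyme, with 702, 691 and 781 FPKM in LOC109098887 and 118, 151 and 167 in LOC109103749. LOC109098887 is named here from its description, while its RefSeq symbol by gene ID is rskrb. That gene spans 2400388 to 2566214 on its sequence, NC_031718.1. Gfap, the intermediate filament of astroglia, had 149, 146 and 122 FPKM in LOC109111834 and 108, 88.0 and 111 in LOC109063688. Glutamine synthetase (glul), which recycles glutamate, had 144, 119 and 168 FPKM in LOC109080911, 125, 102 and 143 in LOC109074426, 61.4, 32.4 and 42.6 in LOC109069865, and under 1 FPKM in LOC109046284.

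The radial glial enzyme brain aromatase (cyp19a1b, LOC109068452), which makes oestrogen, had 40.1, 13.3 and 12.5 FPKM and was high in replicate 1. The water channel aquaporin-4, typical of mammalian astrocyte end-feet, did not meet the detection rule in any of 4 copies, with LOC109058681 leading at 1.33, 0.874 and 1.47 FPKM.

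Neuronal markers were led by snap25 and by stathmin-2 (LOC109079179), a protein of growing axons, at 255, 289 and 318 FPKM. Gap43, a growth cone protein, had 267, 239 and 246 FPKM in its named copy. Of the 60 copies on the list, 1 had 0 counts in all 3 libraries.

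Myelin genes were dominated by LOC109066305, which held 72.4% of the mean sum of its list. LOC109086534, whose description refers to that gene, was not matched by name and is not in the sum, at 1475, 901 and 949 FPKM. The other copies matched as myelin basic protein were LOC109095962 at 107, 92.0 and 109 FPKM, LOC109095958 at 39.7, 28.9 and 45.6, and LOC109095961 at 12.1, 9.53 and 7.21. Myelin protein zero, which mammals use in peripheral nerve and fish also in the brain, had 238, 130 and 298 FPKM in mpz, 191, 79.3 and 236 in LOC109111261, and 0, 11.7 and 11.6 in LOC109098833.

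Apart from LOC109095961 and LOC109098833, these 7 copies of mbp and mpz were lowest in replicate 2. Sox10, a transcription factor of the lineage, was also lowest in replicate 2, at 24.1, 5.74 and 7.28 FPKM in LOC109055783. Among precursor markers, pdgfra (LOC109112741) stayed below 1 FPKM, and the 3 highest copies were all of the phosphatase ptprz1, LOC109072256 at 27.5, 27.4 and 31.8 FPKM, LOC109076026 at 7.26, 8.17 and 9.89, and LOC109045659 at 3.56, 2.94 and 5.45.

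The microglia and macrophage list was carried by the invariant chain, whose further copies LOC109085888 and LOC109056743 had 913, 409 and 561 FPKM and 904, 363 and 545 FPKM. Apolipoprotein Eb (LOC109057792), a lipid carrier of microglia in fish, had 739, 313 and 354 FPKM, with the second apoe copy, LOC109111855, at 0 counts. Among markers with lower levels, replicate 1 was also the highest for plastin-2 (lcp1) at 254, 106 and 128 FPKM over 5 copies, the complement component C1q at 64.9, 18.6 and 32.3 over 3, and the colony-stimulating factor 1 receptor at 18.8, 17.6 and 15.8 over 4. The receptor kinase mertk, which takes part in the uptake of dying cells, was highest in replicate 3 and lowest in replicate 2, with a mean of 4.10 FPKM summed over 2 copies. The adaptor tyrobp was below 1 FPKM in both copies.

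Leukocyte markers were also highest in replicate 1, with sums of 149, 72.0 and 83.4 FPKM. The T cell receptor component CD3 zeta (LOC109073654) had 35.3, 16.0 and 27.2 FPKM, the macrophage receptor marco (LOC109086204) 22.9, 16.2 and 19.7, and lysozyme g (LOC109050554) 14.7, 6.55 and 4.04. The kinase lck (LOC109107999) had 1.18, 0 and 1.04 FPKM, immunoglobulin mu (ighm) stayed under 1 FPKM, and the neutrophil enzyme mpx had 0 counts.

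Red blood cell genes were detected in all 3 libraries. Haemoglobin genes summed to 1589, 1250 and 1964 FPKM over 21 copies, with 11 detected. The alpha copy LOC109084014 had 213, 156 and 444 FPKM, while the alpha copy LOC109104655 held steady at 259, 267 and 260 and the beta copy LOC109104650 had 184, 226 and 325. Replicate 3 was the highest for LOC109084014 and LOC109104650.

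Vessel markers were lower. Endothelium summed to 292, 272 and 247 FPKM, led by glucose transporter 1 (LOC109109437), the carrier of the blood-brain barrier, at 51.9, 99.9 and 52.1 FPKM and by claudin-5, its tight junction protein, at 26.5, 15.6 and 22.6 in LOC109052958 and 22.0, 16.0 and 22.7 in LOC109095088. Von Willebrand factor (vwf) was below 1 FPKM. Pericytes and mural cells summed to 154, 106 and 120 FPKM, with smooth muscle actin (LOC109099485) at 28.2, 12.1 and 22.4 and rgs5, a regulator of G proteins, at 20.9, 15.9 and 13.8 in LOC109058064 and 19.6, 13.7 and 13.7 in LOC109091452. Their receptor notch3 was below 1 FPKM.

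Markers of progenitors and dividing cells summed to 150, 92.0 and 123 FPKM. The replication clamp pcna had 41.1, 24.8 and 28.2 FPKM in LOC109110298 and 26.3, 18.9 and 22.2 in LOC109110302, and doublecortin (LOC109086483), a marker of migrating neurons, had 18.4, 12.5 and 20.3. Markers of meninges and fibroblasts summed to 67.8, 66.4 and 73.2 FPKM, led by decorin at 11.7, 12.1 and 24.4 in LOC109075130 and 14.3, 12.7 and 8.98 in LOC109046493 and by lumican (LOC109071488) at 7.18, 9.36 and 16.0, both matrix proteoglycans. Ependymin was high in replicate 1 alone. Members of the list differed in this, with collagen alpha-1(I) at 13.7, 10.6 and 8.48 FPKM and fibronectin at 8.04, 5.35 and 2.97 FPKM over their copies, both highest in replicate 1, and decorin and lumican summed over copies highest in replicate 3. The part of cell makeup in the ependymin difference was not tested.

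The lists of pituitary, of ependyma and choroid plexus and of skeletal muscle had the lowest sums. Oligodendrocyte precursors came next, at a mean of 53.5 FPKM. Ependyma and choroid plexus had 23.5, 23.6 and 20.6 FPKM, with transthyretin (LOC109052536), a thyroid hormone carrier, at 4.84, 7.16 and 2.85, enkurin (LOC109093093) at 3.97, 2.83 and 2.88, and foxj1, the regulator of motile cilia, at 2.43, 2.61 and 3.20 in LOC109099554. The ciliary dynein chain dnai1 was below 1 FPKM in both copies.

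Pituitary hormones were low, with 1 of 14 copies detected and a sum of 11.2, 9.76 and 4.46 FPKM. The highest were pomc (LOC109076472) at 4.82, 0.907 and 0.515 FPKM, the glycoprotein alpha subunit (cga) at 1.60, 2.29 and 0.996, and a gonadotropin beta subunit (LOC109094212) at 1.47, 2.16 and 1.22. Growth hormone, thyrotropin beta, somatolactin and the factor pou1f1 were below 1 FPKM in all copies.

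Skeletal muscle markers summed to 34.7, 38.7 and 30.4 FPKM, of which fast troponin T (LOC109093830) had 12.5, 11.7 and 9.45, fast troponin I (LOC109090851) 2.83, 3.45 and 6.28, and alpha-actinin-3 (LOC109061010) 3.49, 5.07 and 2.29. Fast myosin heavy chain, muscle creatine kinase and the myosin light chain mylpf were below 1 FPKM in all copies. LOC109092410, described as a muscle-like actin, is not in that sum, at 1393, 1149 and 1038 FPKM. The list of retina, pineal and lens held 63.5, 74.0 and 63.2 FPKM, led by the melatonin enzyme asmt (LOC109108087) at 19.8, 26.4 and 18.9 and by transducin alpha, the light-sensing G protein, at 8.03, 10.5 and 5.51 in LOC109091504 and 5.82, 11.2 and 6.12 in gnat1. Opsins and rbp3, a retinoid carrier of the retina, stayed below 1 FPKM on average in all copies.

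Differences between the 3 untreated libraries were described for abundant genes. Of 1861 genes with a mean of at least 50 FPKM, the median coefficient of variation was 13.7%, and 43 genes exceeded 50%. Of these 43, 23 were highest in replicate 1, 13 in replicate 2 and 7 in replicate 3. Over all detected genes the shares were 34.8%, 28.0% and 37.1%.

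The 10 most variable of the 1861 genes included both isotocin forms. The IT 2 gene (LOC109076367) had 40.9, 642 and 0 FPKM, from 621, 9064 and 0 counts. The mitochondrial ATP synthase subunit LOC109089329 had 147, 47.7 and 0 FPKM, and LOC109093928, which is described as a nuclease-sensitive element-binding protein, had 194, 0 and 170. A cytosolic dipeptidase (LOC109055046) had 3.81, 43.6 and 114 FPKM and an RNA-binding hnRNP L-like gene (LOC109062863) 64.1, 153 and 18.0. The unnamed genes LOC109108003 and LOC109056269 had 121, 12.4 and 44.0 FPKM and 0.0870, 91.2 and 69.6 FPKM. LOC109063687, LOC109046810 and LOC109085244, described above, completed the 10.

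**Figure D5:**
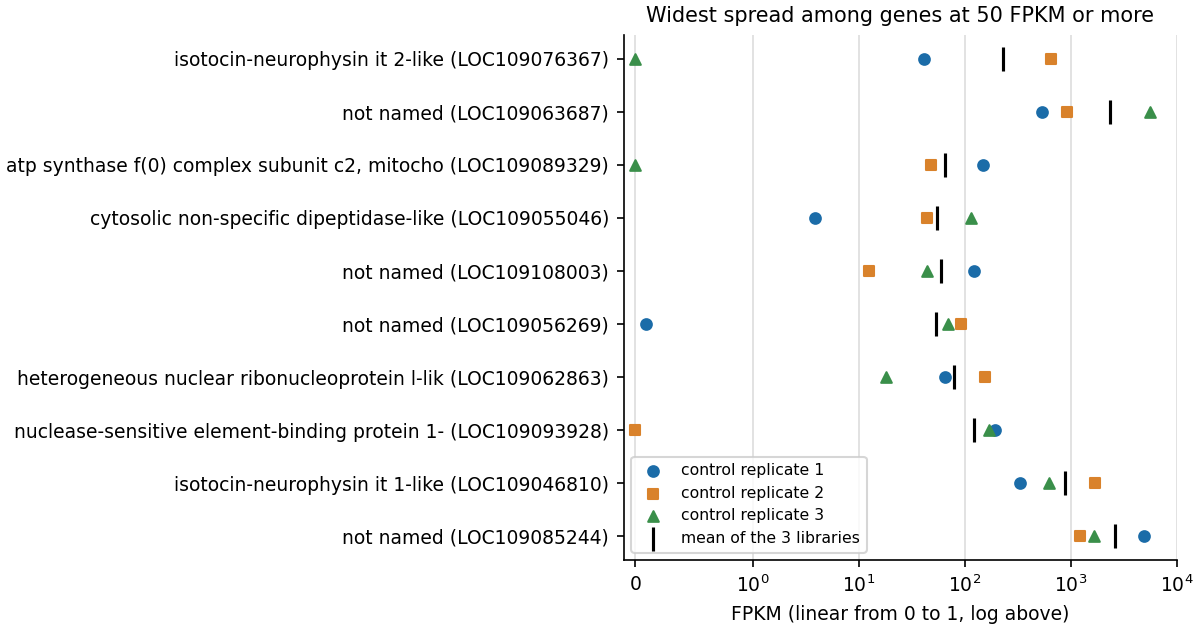
FPKM of the 10 genes with the highest coefficient of variation among those with a mean of at least 50 FPKM, with 1 symbol per control library and a bar at the mean. The axis is linear from 0 to 1 and logarithmic above. The symbols at 0 belong to replicate 3 for isotocin IT 2 and the ATP synthase subunit and to replicate 2 for LOC109093928.

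The 10 genes of lowest variation were picked from the 1861 for their small spread, so that spread follows from the choice. Whether they would be as steady in further libraries was not tested. Ndufb8 of complex I had 217, 216 and 217 FPKM (217 ± 0.665, SD), and eukaryotic translation initiation factor 3 subunit C (LOC109052802) 71.3, 71.5 and 71.0. Also among the 10 with the lowest variation were hnRNP R (LOC109071309), the clathrin adaptor AP-2 beta (LOC109090171), the autophagy protein LC3A (LOC109059920), the G protein subunit beta-5 (LOC109068451), ankrd29, casein kinase II beta (LOC109076866), ndrg3 (LOC109090820) and calpain small subunit 1 (LOC109103167), with coefficients of variation up to 1.2%.

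Some genes were well counted in 1 library and not at all in another. There were 201 such genes with 0 counts in at least 1 library and 200 or more in another, a description chosen after the values were seen. Of them 146 were at 0 in a single library, 32 in replicate 1, 49 in replicate 2 and 65 in replicate 3. An AMPA receptor subunit gave the clearest case. Of 2 neighbouring genes on sequence NW_017545379.1, both described as glutamate receptor 3, LOC109087583 had 557, 0 and 0 counts and LOC109087561 had 0, 1878 and 1600 counts. The GABA-A delta subunit copy LOC109057022 had 266, 250 and 0 counts while its partner gabrd was steady. Neuronal pentraxin-1 (LOC109073298), a protein that clusters AMPA receptors, had 380, 489 and 0 counts. The cause of these zeros was not tested.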

How the data were processed

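Poly(A) RNA from carp brain was sequenced from both ends on an Illumina instrument, per the labels. Tools listed by the submitters' processing notes are HISAT2 2.0, StringTie 1.3.0 and Bowtie 0.12.2, with a mouse genome build, while the deposited table gives carp RefSeq sequences. The carp assembly, the handling of reads that match several genes and the use of strand are not given in the sources used here. Per the file headers, the deposited table holds counts per gene and FPKM for each library. The authors made both values; no further scaling was applied to FPKM. Of its columns, those of the 3 control libraries were used, and 0 columns of no sample were used.

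Levels between genes were compared in the deposited FPKM. Genes were named from the table's descriptions. Where a description was uninformative, RefSeq symbols were taken by gene ID from a table of another assembly, in which 34840 of 53152 IDs (65.5%) matched. Families were genes with identical description text, uninformative ones left out, and families below a summed mean of 1 FPKM were not counted. The biological coefficient of variation came from the deposited counts with edgeR 4.0.16 in R 4.3.3 (TMM factors, intercept-only design), with DESeq2 1.42.0 factors as an alternative. This estimate was tested on simulated data, and so was the median leading share of pairs. The counts of families with the same leading copy were not tested in that way, nor were families larger than pairs. At least-fold values use a floor of 3 counts over the 3 libraries. Levels per library rest on 31159339 to 34848243 counts, and intervals were not computed.

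Members, gene lists and alternatives were chosen with earlier results of these data known. Named were the 25 genes of highest mean FPKM, the highest, most unequal and most balanced families at 50 FPKM or more, the leading copy of each transmitter role with all copies of its main enzymes and transporters, the 3 leading copies of each cell type list with defining genes whose copies were all under 1 FPKM, all copies of listed glial and reference genes, and the 10 genes of highest and of lowest coefficient of variation among those with a mean of at least 50 FPKM. Further copies named beside them, among them gap43, sox10, the lower NMDA receptor copies, C1q, plastin-2, mertk, collagen alpha-1(I) and fibronectin, were chosen after their values were seen. For 11 list genes no copy was matched by name: slc1a6, an unspecified gad, bche, chgb, tubb3, zwi, 36K, cx3cr1, epb42, ccdc114 and lhb. A few genes that these rules name are not reported here.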

Additional observations from a re-analysis of the deposited data

How the results depend on the processing

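No paired analysis was possible because the data are 1 group of libraries. Of the alternatives, 39 values of the main results stayed within their bounds and 18 moved. For counts, orders of lists and gene overlaps the bound was a fold range around the main value. An order of lists would stay within that range even with many pairs reversed, so its staying says little. All 78 values of single lists stayed, but each left out 1 of 3 libraries and was held against the SD over the same libraries. Such a mean cannot leave that bound, so these values say nothing of stability. The same holds for the top 10 and top 100 shares with 1 library left out. The number of detected genes, 28705, was 15350 at 5 FPKM and 49394 with any count in any library, and 29676 to 30374 with 1 library left out. Averaged over the libraries, the top 10 genes of each library held 5.06% of its FPKM and 3.50% of its counts. The FPKM share was 3.35% without the ependymin gene (an alternative chosen after seeing the data), and 4.27% to 5.63% with 1 library left out. The top 100 genes, averaged in the same way, held 15.9% of FPKM and 11.6% of counts, and 14.7% to 16.7% of FPKM with 1 library left out. Ranked by CPM, 14 of the 25 named genes stayed among the top 25 with TMM factors and 14 with median-of-ratios factors, against 24 by the median and 21 to 24 with 1 library left out. Families with 1 leading copy numbered 1731 (82.2%) at a sum of 20 FPKM, 7584 (75.8%) with cleaned descriptions and 3054 for exactly 2 copies. The leading share of pairs was 72.5% with no minimum, 68.3% at 5 FPKM, 65.7% at 20 FPKM, 65.7% with cleaned descriptions, 77.7% in counts, and 70.2% to 71.4% with 1 library left out. The coefficient of variation between libraries was 0.338 at 5 counts, 0.320 at 10 counts and 0.256 to 0.278 with 1 library left out. Levels from counts divided by transcript length were not computed, since the table lists no length. The length implied by counts and FPKM was nearly the same in each library. Over 18441 genes with more than 200 counts in all 3, the 99th percentile of its spread was 1.01%. Levels from that length would therefore nearly repeat the deposited FPKM.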

Other observations

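Pairs of copies whose lead changed between libraries included abundant genes of the cytoskeleton and the ribosome. Tubulin alpha-1A, a building block of neuronal microtubules, had 498, 231 and 405 FPKM in LOC109048652 and 365, 285 and 324 FPKM in LOC109048653, so the second copy led in replicate 2 alone. Tubulin beta-1 had 309, 231 and 224 FPKM in LOC109052593 and 216, 168 and 319 FPKM in LOC109055720, and the lead changed in replicate 3. Ribosomal protein S19 had 682, 519 and 619 FPKM in LOC109104750 and 697, 478 and 602 FPKM in LOC109058438.

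Copies of transmitter and cell type genes kept 1 leader about as often as all families did. Of 130 transmitter families 103 (79.2%) did so, and of 82 cell type families 64 (78.0%), against 77.1% of all. The median leading share was 74.4% in 59 transmitter pairs and 77.8% in 45 cell type pairs.

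A gene described as V-ATPase subunit e 2, LOC109093934, had 1602, 0 and 1344 counts and lies on the same sequence, NC_031710.1, as LOC109093928, which also had 0 counts in replicate 2. Of the detected genes, 34.8% were highest in replicate 1, 28.0% in replicate 2 and 37.1% in replicate 3.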
